A study of Mus musculus with 5 samples.

Results

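Bin1, Picalm, Sorl1, Cd2ap, Abi3, Abca7, Clu, Ptk2b, Cass4 and Rin3 are the mouse counterparts of human genes near which genetic variants alter the risk of Alzheimer disease, and which act in endocytosis, cell adhesion and the cytoskeleton, or lipid transport. They were taken from the deposited count table by gene name, and all 10 were present among its 56748 genes. All 10 also passed the filter on low counts that left 17724 genes for testing. The libraries were made from CD11b-positive cells of the mouse brain, with the cerebellum taken off, at 7 months of age. Of the 5 libraries, 3 came from 5xFAD/Cd5l tg/wt mice (replicates 1, 2 and 3, called Cd5l tg here), which carry the 5xFAD transgenes and in addition a mouse Cd5l transgene driven by the human PDGF-B promoter, and 2 came from 5xFAD mice without it (replicates 1 and 3). The 5xFAD transgenes, which cause amyloid plaques, are thus shared by every mouse, and wild-type mice were not analysed here. The titles name CD11b-positive cells while the descriptions speak of brain tissue. All 8 microglial markers were detected in every library, among them CD11b itself (Itgam, 305 to 363 CPM in Cd5l tg, 344 and 354 CPM in 5xFAD). The markers of every other cell type listed were also detected in every library, so detection alone cannot decide between the 2 wordings. CD11b is an integrin of microglia and other myeloid cells, whereas the PDGF-B promoter is used to drive transgenes in neurons.

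Cells take up membrane and its receptors through pits coated with clathrin, pinch them off with the help of proteins that bend membrane and bind actin, and then sort the cargo in early endosomes for return to the surface or for degradation in lysosomes. Human genetics links several steps of this route to Alzheimer disease, through the handling of the amyloid precursor in neurons and through uptake by microglia. The genes here cover the coat (Picalm), membrane curvature (Bin1), the early endosome (Rin3), receptor sorting (Sorl1), links to actin (Cd2ap, Abi3), adhesion signalling (Ptk2b, Cass4) and lipid export or lipid carriage (Abca7, Clu).

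The libraries held between 30798377 and 34794617 counts, so that 1 count was worth 0.0282 to 0.0339 CPM, the count of a gene scaled to a common library total, after adjustment by the trimmed mean of M values (TMM); all CPM values here are on that scale. Cd5l had 7230, 10680 and 6438 counts in Cd5l tg replicates 1, 2 and 3, against 45 and 9 counts in 5xFAD replicates 1 and 3. The transgene itself was thus 299 times higher by the fit (95% interval 94.2 to 952), yet edgeR did not call it (adjusted p = 0.765), while DESeq2 did (adjusted p = 6.61e-19). A missing edgeR call over all genes therefore says little in this design, and the intervals are given beside it. Summed over 8 microglial markers, the level was 21952 to 23842 CPM in Cd5l tg and 22629 and 21713 CPM in 5xFAD replicates 1 and 3. RNA of other cell types was present in every library and differed between them: 8 markers of choroid plexus and ependyma summed to 421 to 990.1 CPM in Cd5l tg, against 685 and 4210 CPM in 5xFAD replicates 1 and 3, and 8 oligodendrocyte markers to 365 to 4236 CPM in Cd5l tg (highest in replicate 2), against 367 and 339 CPM in 5xFAD. Of 13 marker lists, 5 had every Cd5l tg sum above both 5xFAD sums: endothelial (654 to 1173 CPM in Cd5l tg, 604 and 574 CPM in 5xFAD), mural (377 to 517 CPM, against 284 and 300.5 CPM), monocyte (169.7 to 295 CPM, against 133 and 137 CPM), neuronal (12.8 to 25.7 CPM, against 10.9 and 11.5 CPM) and erythroid (7.40 to 20.7 CPM, against 2.40 and 1.47 CPM). Their part in the results was not tested. A set of 8 genes of plaque-associated microglia summed to 5865 to 6520 CPM in Cd5l tg, against 12626 CPM in 5xFAD replicate 1 and 5993 CPM in replicate 3. In such libraries fewer cells of a type and less RNA per cell cannot be told apart.

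None of the 10 genes differed between the genotypes beyond the spread between mice. In the edgeR quasi-likelihood test 0 of 10 were called at an adjusted p under 0.05 (adjusted p = 0.999 for each), 0 had an unadjusted p under 0.05, and DESeq2 and limma-voom also called 0 of 10. Over all tested genes edgeR called 0% and limma-voom 0%, and 475 genes (2.68%) had an unadjusted p under 0.05 in edgeR. DESeq2, run on the whole table with a filter of its own, called 15 of 15578 genes (0.0963%). In every one of the 10 genes the Cd5l tg and 5xFAD values overlapped, while in 15.9% of all tested genes the 3 Cd5l tg libraries lay on 1 side of both 5xFAD libraries (above in 7.2%, below in 8.69%). Log2 fold changes (Cd5l tg over 5xFAD) ran from -0.78 for Clu to 0.12 for Picalm, with 6 above 0 and 4 below 0 and a median of 0.010, against -0.027 over all tested genes. The size was under 0.1 for 7 of the 10. By an exact two-sided permutation test on log2 CPM, whose smallest possible p with 3 against 2 libraries is 0.2, the members gave p = 0.4 to 1.0.

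**Figure D1:**
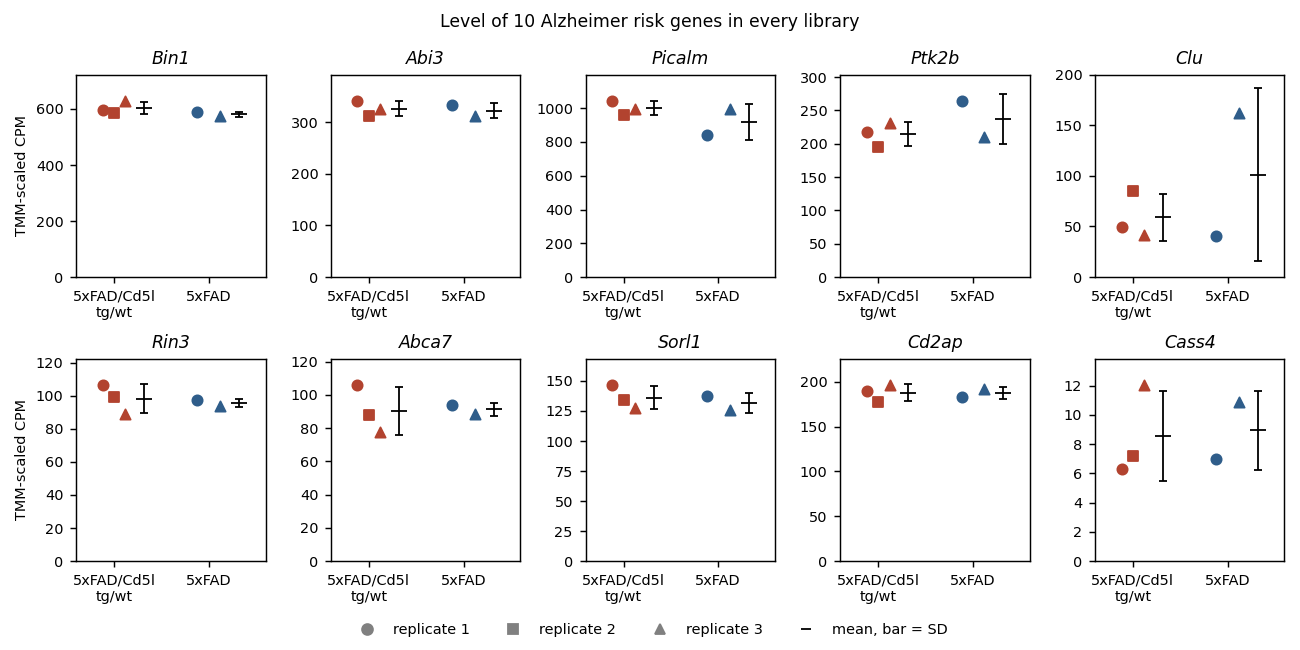
TMM-scaled CPM of each gene (vertical axes from 0, a scale of its own for each) in 3 Cd5l tg libraries (left) and 2 5xFAD libraries (right); each symbol is 1 mouse, its shape the replicate number, and the black mark is the mean with its SD. In 8 genes the 5 libraries lie close together, whereas Clu is high in 5xFAD replicate 3 and Cass4 is high in replicate 3 of both genotypes.

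Most of these genes varied by less than 1.4 times between the mice. In 8 of the 10 the highest library exceeded the lowest by 1.09 to 1.37 times, and the exceptions were Cass4 (1.90 times) and Clu (3.95 times). The median tested gene stood at 1.39 times, a value not matched for level, whereas these 8 ranked 105 to 2328 by mean CPM. Abca7 (1.37 times) and Ptk2b (1.36 times) lay close to that median. For these 8 the 95% intervals of the fold change reached no lower than 0.728 and no higher than 1.32. These intervals bound the genotype difference and do not show that there was none.

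**Figure D2:**
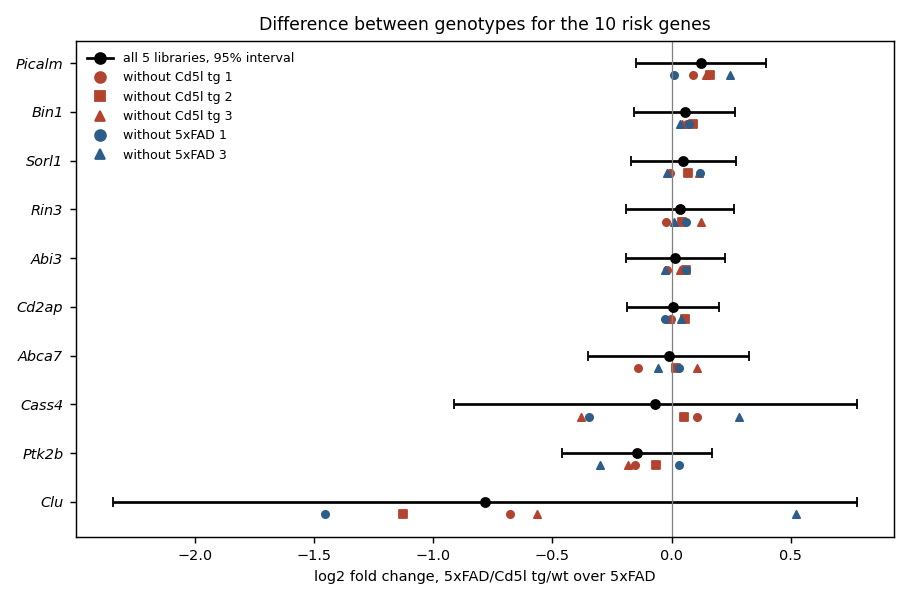
Log2 fold change of each gene, Cd5l tg over 5xFAD, with its 95% interval from the edgeR fit on 5 libraries (black), and the value with each library left out (coloured symbols beneath). Every interval includes 0; the values of Clu lie between -1.45 and 0.52 depending on the library left out.

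Because longer genes collect more counts, levels of different genes were compared as CPM per kilobase of the gene length in the authors' table. Bin1 was the highest at a mean of 144.4 CPM per kb over the 5 libraries, followed by Abi3 (78.2) and Picalm (61.5), and the ranges of these 3 did not overlap with each other or with the next gene. Ptk2b (30.2) and Clu (22.1) came next, with overlapping ranges. Rin3 (14.2), Abca7 (13.4), Sorl1 (11.9) and Cd2ap (11.8) formed a group in which each overlapped its neighbour, and Clu, with its wide range, overlapped all of them. Cass4 was lowest at 1.63 CPM per kb. The order depends on the listed lengths (15.7 kb for Picalm, 4.12 kb for Bin1), and the overlap of ranges does not cover an error in them. By CPM Picalm was above Bin1 in every library. The level of Abi3 may also include reads of the genes on its opposite strand, given below.

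Picalm encodes an adaptor that binds phosphoinositides and clathrin and sets the size of the coated pit. It lies on chromosome 7, 89779421 to 89862673 (GRCm39, as are all gene positions here). By CPM it was the most abundant of the 10 and ranked 105 among the 17724 tested genes. It stood at 1042, 961 and 995 CPM in Cd5l tg replicates 1, 2 and 3, against 843 and 993 CPM in 5xFAD replicates 1 and 3. The log2 fold change was 0.12 (SE 0.11, 95% interval -0.15 to 0.40). Only 5xFAD replicate 1 stood below the rest, and without that mouse the value was 0.011.

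The promoters of the most and the least abundant of the 10 genes by CPM, Picalm and Cass4, are shown to set their base composition side by side. They are from RefSeq (GRCm38.p6), 250 bases before to 50 bases after the start of the gene, at chr7:90129963-90130262 and chr2:172393394-172393693, both on the plus strand. Capitals mark GAGGAA, the core that the myeloid factor PU.1 binds, and TCACGTGA, the E-box form bound by lysosomal regulators such as TFEB; the second was searched after the sequence had been read.

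Picalm: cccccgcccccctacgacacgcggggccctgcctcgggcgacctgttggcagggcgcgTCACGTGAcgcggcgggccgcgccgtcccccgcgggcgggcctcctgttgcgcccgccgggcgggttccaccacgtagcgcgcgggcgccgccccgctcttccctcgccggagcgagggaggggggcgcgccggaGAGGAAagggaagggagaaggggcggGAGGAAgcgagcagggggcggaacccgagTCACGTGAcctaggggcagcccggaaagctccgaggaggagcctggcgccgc

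Cass4: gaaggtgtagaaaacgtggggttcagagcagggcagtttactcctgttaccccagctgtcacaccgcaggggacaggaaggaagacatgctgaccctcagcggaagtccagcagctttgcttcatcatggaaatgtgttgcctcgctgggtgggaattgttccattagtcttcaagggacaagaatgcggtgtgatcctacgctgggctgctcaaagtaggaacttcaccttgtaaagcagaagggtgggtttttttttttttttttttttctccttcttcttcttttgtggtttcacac

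The Picalm window held 78% G and C and 44 CpG pairs, and the Cass4 window 48% and 6, against medians of 53% and 7 over 32544 windows of the same length. Picalm contained TCACGTGA at positions -192 and -2 from the start, and GAGGAA at positions -57 and -31. Both strands were searched, and TCACGTGA reads the same on either; 0.983% of all windows held it and 28.1% held GAGGAA. Neither motif was in the Cass4 window, and the AP-1 motif TGANTCA, which 7.79% of all windows held, was in neither. Windows of 6 of the 10 genes were read, 8 in all, and Picalm was the only 1 of them with TCACGTGA or with GAGGAA. These matches are letters in a window and were not tested as sites.

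Bin1 encodes an amphiphysin-family protein that senses and tubulates membrane and binds dynamin (chromosome 18, 32510283 to 32568790). Its values were 596, 585 and 629 CPM in Cd5l tg, against 587 and 574 CPM in 5xFAD, so that only Cd5l tg replicate 3 stood slightly above the others. The log2 fold change was 0.05 (SE 0.09), with a 95% interval of the fold from 0.897 to 1.20. Over the 5 libraries 4.93% of all tested genes had a narrower range, a share not matched for level (Bin1 ranked 194 by mean CPM).

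Rin3 encodes an exchange factor that activates the early endosome GTPase RAB5 (chromosome 12, 102249307 to 102357114). It stood at 106, 98.9 and 88.9 CPM in Cd5l tg, against 97.2 and 94.0 CPM in 5xFAD, with both 5xFAD mice inside the Cd5l tg range (log2 fold change 0.04, SE 0.09). Sorl1 encodes a sorting receptor that returns cargo, among it the amyloid precursor, from endosomes (chromosome 9, 41876016 to 42035593). It stood at 147, 135 and 127 CPM in Cd5l tg, against 138 and 126 CPM in 5xFAD (log2 fold change 0.05, SE 0.09). In both genes replicate 1 was the highest of the Cd5l tg mice and replicate 3 the lowest.

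Cd2ap encodes a scaffold that joins receptors and endocytic proteins to actin (chromosome 17, 43103842 to 43187556). Its log2 fold change was the smallest of the 10 at 0.005 (SE 0.08), from 189, 178 and 196 CPM in Cd5l tg, against 183 and 192 CPM in 5xFAD. Abi3 encodes a subunit of the WAVE complex, which starts branched actin networks, and is known in brain as a gene of microglia (chromosome 11, 95720900 to 95733302). It stood at 341, 311 and 326 CPM in Cd5l tg, against 332 and 313 CPM in 5xFAD (log2 fold change 0.02, SE 0.08). On the opposite strand Abi3 overlaps Zfp652, a zinc finger gene with 7218 to 8975 counts per library, and Gngt2, a G protein gamma subunit gene with 2411 to 2708, and without a known strand setting the reads of such partners cannot be told apart. Zfp652 had up to 80.9% as many counts as Abi3, and Gngt2 up to 27.6%. Other genes overlapping the 10 had at most 2.45% of the member's counts, except a non-coding gene opposite Cass4 with 7.73% (7 to 16 counts).

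Ptk2b encodes PYK2, a kinase of the focal adhesion family activated by calcium and integrins (chromosome 14, 66390706 to 66518501). It stood at 218, 195 and 231 CPM in Cd5l tg, against 264 and 210.2 CPM in 5xFAD. The log2 fold change of -0.14 (SE 0.13, 95% interval -0.46 to 0.17) rested on 5xFAD replicate 1, the highest of the 5 mice; without it the value was 0.03, and without 5xFAD replicate 3 it was -0.30. That library is also the one with 12626 CPM of plaque-associated genes, and it had the lowest Picalm value; the part of that state in either gene was not tested. Ptk2b and Clu lie 172 kb apart with 5 genes between them, and they were highest in different libraries, Ptk2b in 5xFAD replicate 1 and Clu in 5xFAD replicate 3.

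Abca7 encodes a transporter that moves phospholipids across membranes (chromosome 10, 79832328 to 79851406). It stood at 106, 88.2 and 77.4 CPM in Cd5l tg, against 93.9 and 88.6 CPM in 5xFAD, so that the Cd5l tg mice spanned more than the whole 5xFAD range. The log2 fold change was -0.01 (SE 0.14), and its sign changed with the scaling method (0.007 with DESeq2 size factors).

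Clu stood apart from the other 9 by its spread. It encodes clusterin, a secreted chaperone and lipoprotein component that astrocytes, choroid plexus and ependyma are known to make in quantity (chromosome 14, 66205932 to 66218996). It stood at 49.9, 84.9 and 41.9 CPM in Cd5l tg replicates 1, 2 and 3, against 40.9 and 162 CPM in 5xFAD replicates 1 and 3. The exact Poisson 95% interval for 5xFAD replicate 3 was 157 to 166 CPM and that of 5xFAD replicate 1 was 38.7 to 43.3 CPM, so that counting error was small beside the difference between these mice. The means were 58.9 ± 22.8 CPM in Cd5l tg (SD, n = 3) and 101.2 ± 85.3 CPM in 5xFAD (SD, n = 2). The log2 fold change was -0.78 (SE 0.61, 95% interval -2.34 to 0.78).

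The sign of that difference rested on 1 mouse. Without 5xFAD replicate 3 the log2 fold change of Clu was 0.52, without 5xFAD replicate 1 it was -1.45, and without both 5xFAD replicate 3 and Cd5l tg replicate 2 it was 0.17. The libraries high in Clu were those high in choroid plexus and ependymal RNA: Ttr, the transthyretin gene of choroid plexus, had 204, 442 and 288 CPM in Cd5l tg, against 390 and 2476 CPM in 5xFAD replicates 1 and 3. The summed 8 markers were 421, 990.1 and 514 CPM in Cd5l tg, against 685 and 4210 CPM in 5xFAD. Foxj1, the master gene of motile cilia in ependyma, had 9.43, 11.9 and 6.53 CPM in Cd5l tg, against 4.57 and 39.1 CPM in 5xFAD. The 8 astrocyte markers summed to 357, 437 and 309 CPM in Cd5l tg, against 302 and 323 CPM in 5xFAD, a sum made mostly of Gfap, Slc1a3 and Slc1a2. Among the less abundant of them, Aqp4, Gja1 and Gjb6 had the order of Clu at the top, highest in 5xFAD replicate 3 and next in Cd5l tg replicate 2. The remaining astrocyte markers did not. Aldoc, Aldh1l1, Slc1a2 and Slc1a3 were highest in Cd5l tg replicate 2, and Gfap in Cd5l tg replicate 1. Aldoc stood at 16.4, 31.9 and 10.6 CPM in Cd5l tg, against 11.2 and 10.3 CPM in 5xFAD. Gja1, a gap junction gene, stood at 7.72, 17.5 and 8.41 CPM in Cd5l tg, against 4.67 and 22.5 CPM in 5xFAD, and Aqp4, the water channel of astrocyte endfeet and ependyma, at 6.33, 7.58 and 5.53 CPM, against 4.81 and 21.9 CPM. Clu did not follow the choroid plexus sum in proportion, at 0.119, 0.0857 and 0.0815 CPM of Clu per CPM of markers in Cd5l tg, against 0.0597 and 0.0384 in 5xFAD. The part of these cells in the Clu level was not tested.

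Among 10434 tested genes with an average of 5 CPM or more, those with the pattern most like Clu over the 5 libraries were Bmp6, Cyb561, Nwd1, Fsd1l and Itgb8, by a root mean square difference in centred log2 CPM of 0.084 to 0.14. Bmp6, a secreted ligand of the bone morphogenetic protein family, stood at 3.84, 5.89 and 3.11 CPM in Cd5l tg, against 2.91 and 13.3 CPM in 5xFAD. Itgb8, the integrin beta chain that activates latent TGF-beta, stood at 9.88, 18.4 and 9.55 CPM in Cd5l tg, against 9.99 and 30.03 CPM in 5xFAD. In all 5, as in Clu, 5xFAD replicate 3 was highest and Cd5l tg replicate 2 next, an order that follows from how they were chosen. None was called in edgeR (adjusted p = 0.999 each).

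**Figure D3:**
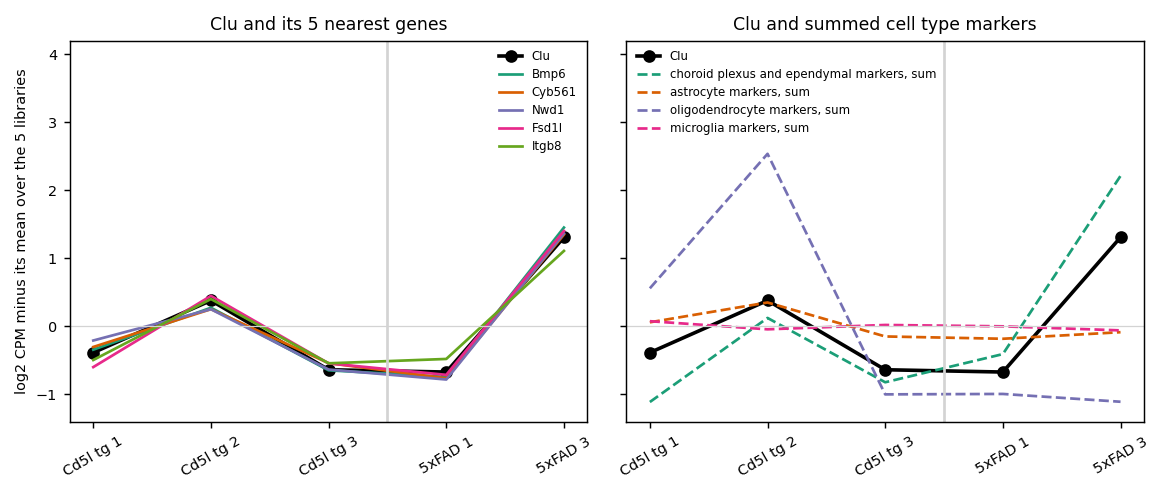
Log2 CPM, centred on its mean over the 5 libraries, for Clu with its 5 nearest genes (left) and for Clu with the summed CPM of 4 marker lists of 8 genes (right); lines only join the libraries of 1 gene or list, Cd5l tg left of the grey line. Clu and the choroid plexus and ependymal sum are both highest in 5xFAD replicate 3, while the microglial sum is flat.

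Cass4 was highest in the libraries numbered 3 of both genotypes. It encodes a docking protein of the Cas family that works at focal adhesions (chromosome 2, 172235714 to 172275677), and it was the least abundant of the 10, with 196 to 398 counts per library. It stood at 6.33, 7.21 and 12.03 CPM in Cd5l tg replicates 1, 2 and 3, against 7.01 and 10.9 CPM in 5xFAD replicates 1 and 3. Replicate 3 of each genotype was thus above the other 3 libraries, and the exact Poisson 95% intervals of 10.9 to 13.3 CPM (Cd5l tg) and 9.80 to 11.996 CPM (5xFAD) in those 2 lay above the highest upper bound of the others, 8.20 CPM. The log2 fold change was -0.07 (SE 0.34, 95% interval -0.91 to 0.78), with values from -0.38 to 0.28 as single libraries were left out.

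The labels give no batch, and the number may have no meaning beyond a name. The libraries of replicate 3 were both above the other 3 in 12.6% of all tested genes and both below in 12.5%. Among the 10 genes, Cass4 and Cd2ap were above in this way, by little for Cd2ap, and Sorl1 and Rin3 were below. Of 13 marker lists, only that of T cells had both sums of replicate 3 highest, and that sum was mostly Cd4, while Cd3e, Cd3d and Cd3g were highest in 5xFAD replicate 1.

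Each gene but Clu, for which no paralog was listed, was then set beside its paralogs. Bin1 was 1.39 times Bin2, a myeloid relative (104 CPM per kb), and 11.6 times Bin3, while Amph, the neuronal amphiphysin, averaged 0.237 CPM per kb. Picalm was 168 times its neuronal paralog Snap91 (0.366 CPM per kb). Abi3 was 2.18 times Abi1 and 14.9 times Abi2, and Ptk2b was 20.7 times Ptk2, the focal adhesion kinase.

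In other families the risk gene was not the leading member. Sort1, the receptor sortilin, stood at 42.9 CPM per kb, 3.61 times Sorl1, and the Sorcs genes were at 0.188 CPM per kb or less. Abca1, the main cholesterol exporter of macrophages, was 3.44 times Abca7 at 46.3 CPM per kb. Abca2 averaged 1.43 times Abca7, but their ranges overlapped, and Abca2 was highest in Cd5l tg replicate 2 (29.0 CPM per kb, with 18.2 in replicate 1). Rin2 was 2.10 times Rin3 at 29.9 CPM per kb, whereas Rinl (11.4) and Rin1 (0.367) were lower. Sh3kbp1, the paralog of Cd2ap also called CIN85, was at nearly the same level (12.3 CPM per kb, against 11.8 for Cd2ap, with overlapping ranges), and the Cas family genes Nedd9 (1.76), Bcar1 (1.403) and Efs (1.37) had levels whose ranges overlapped with that of Cass4. The sources used here do not say how the listed gene lengths were derived.

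**Figure D4:**
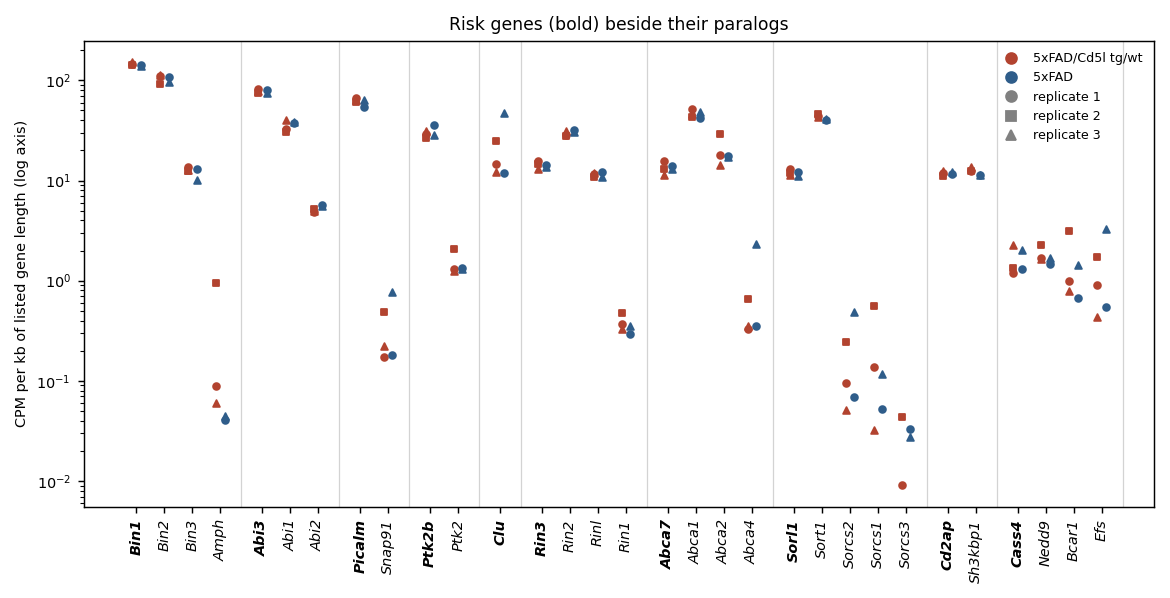
CPM per kilobase of the listed gene length (logarithmic vertical axis) for each risk gene (bold) and its paralogs, ordered by the level of the risk gene; Cd5l tg points (red) are left of 5xFAD points (blue), and symbol shape is the replicate number. Bin1, Abi3, Picalm and Ptk2b lie above their paralogs, Sort1, Abca1 and Rin2 lie above Sorl1, Abca7 and Rin3, and the 1 library with 0 counts of Sorcs3 (Cd5l tg replicate 3) is not drawn.

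Pathway lists without the 10 genes held no call either: edgeR called 0 of 25 clathrin coat, AP-2 and scission genes, 0 of 12 retromer, sorting nexin and GGA genes, 0 of 10 RAB5 early endosome genes, 0 of 10 WAVE complex genes, 0 of 6 CD2AP partners, 0 of 15 focal adhesion and Src family genes, 0 of 6 lipoprotein receptors and 0 of 10 tested ABCA transporters, against 0% of all tested genes. DESeq2 also called 0 in each, and Abca5 alone had an unadjusted p under 0.05 in edgeR. The median log2 fold change over all tested genes was -0.027. For the clathrin list it was 0.04 (15 of 25 above 0), and 0.025 to 0.064 with single libraries left out. The other medians were close to 0 and turned sign with at least 1 library left out. For sorting it was -0.04 (3 of 12 above 0) and for RAB5 -0.05 (4 of 10), and without 5xFAD replicate 1 these were 0.0052 and 0.018. For WAVE it was 0.02 (5 of 10), with -0.032 without 5xFAD replicate 3, and for CD2AP partners -0.002 (3 of 6), with 0.084 without Cd5l tg replicate 2. For focal adhesion it was 0.02 (8 of 15), with -0.032 without Cd5l tg replicate 3. Lipoprotein receptors moved most, with a median of -0.07 (1 of 6 above 0) that was -0.35 without 5xFAD replicate 1 and 0.25 without 5xFAD replicate 3. For ABCA transporters it was 0.10 (7 of 10), with -0.018 without Cd5l tg replicate 2 and 0.22 without 5xFAD replicate 3.

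The genes with the smallest unadjusted p-values in each list had edgeR adjusted p = 0.999 throughout. Sh3kbp1 stood at 126, 127 and 138 CPM in Cd5l tg, against 116 and 115 CPM in 5xFAD (log2 fold change 0.18, SE 0.07), and Abi2 at 41.0, 44.5 and 42.8 CPM in Cd5l tg, against 48.9 and 47.6 CPM in 5xFAD (log2 fold change -0.17, SE 0.07). In both the genotypes did not overlap, and the same held for Rab5b, Eea1, Crkl, Dnm3 and Abca5 among the genes named here. Over all tested genes the share was 15.9%. These genes were chosen by smallest unadjusted p in the same data, so that share is no like reference for them. For Rab5b, a RAB5 isoform, the log2 fold change was 0.13 (SE 0.07), and for Eea1, the tether of early endosomes that RAB5 recruits, it was -0.19 (SE 0.09). Abca5, a lysosomal transporter, stood at 9.62, 11.6 and 8.80 CPM in Cd5l tg, against 14.5 and 13.8 CPM in 5xFAD (log2 fold change -0.50, SE 0.16; edgeR adjusted p = 0.999). Vps26a, a retromer subunit, and Gga2, a sorting adaptor, stood at -0.17 and -0.20, and Gga2 was at 0.009 without 5xFAD replicate 1.

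Dnm3, a dynamin, stood at 6.36, 20.6 and 5.35 CPM in Cd5l tg, against 3.69 and 4.79 CPM in 5xFAD (log2 fold change 1.34, SE 0.67), and Wasf3, a WAVE subunit, at 14.2, 24.98 and 7.44 CPM, against 5.32 and 7.84 CPM (log2 fold change 1.24, SE 0.54). In both genes Cd5l tg replicate 2 was highest and replicate 1 next, and without replicate 2 the values were 0.48 and 0.73. Replicate 2 also had the highest sums of 7 of the 13 marker lists (oligodendrocyte, endothelial, mural, astrocyte, neuronal, monocyte and erythroid), and the part of those cells was not tested. Dnm1, the neuronal dynamin, was at 1.66 CPM or less in every library. Lrp1, a large endocytic receptor of apolipoprotein E, stood at 2144, 1697 and 1748 CPM in Cd5l tg, against 2291 and 1751 CPM in 5xFAD, and Scarb1, the receptor of high density lipoprotein, at 66.4, 77.7 and 67.0 CPM, against 91.9 and 66.5 CPM. Both were highest in 5xFAD replicate 1. Abca4 stood at 4.005, 7.93 and 4.203 CPM in Cd5l tg, against 4.27 and 27.8 CPM in 5xFAD. Like Clu it was highest in 5xFAD replicate 3 and next in Cd5l tg replicate 2, but the order of the lower libraries differed. Capza1, Nedd9 and Crkl, the other genes named by the rule, had log2 fold changes of 0.10, 0.25 and -0.08.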

How the data were processed

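The deposited table gave whole-number counts per Ensembl gene, which the authors had not normalised, and a gene length. Per the submitters' processing notes, the genome build is GRCm39; the sources used here name no aligner, counting tool, annotation or strand setting. Columns were matched to libraries by name; that of Cd5l tg replicate 3 had its letter pairs swapped. No per-sample column was left unused. All pairs of libraries differed beyond sampling noise (chi-square per degree of freedom 21.6 to 61.7). The titles number the mice and nothing else shows separate animals, so p-values measure only the spread between these samples.

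Genes were filtered with filterByExpr, scaled by TMM (factors 0.952 to 1.02) and tested with edgeR 4.0.16 (quasi-likelihood, robust) in R 4.3.3, on genotype alone, with Benjamini-Hochberg adjustment over all 17724 tested genes and a threshold of 0.05; standard errors and 95% intervals were derived from its F statistic. Alternatives used DESeq2 1.42.0, limma 3.58.1 (voom with sample weights), other scaling and filters, a replicate block, and libraries left out. Genes and lists were chosen with earlier results of these data known, and the plaque-associated list and the TCACGTGA search were added later. Named genes were the 10 members, up to 2 of each pathway list by smallest unadjusted p, the paralogs for their level, and the 5 genes nearest to the member with the widest range. Intervals of counts cover counting error only.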

Additional observations from a re-analysis of the deposited data

How the results depend on the processing

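Under the 13 alternatives no member of the 10 was called. The count over all genes was 0 higher and 0 lower in edgeR, 12 higher and 3 lower in DESeq2, 36 higher and 58 lower with 5xFAD replicate 3 and Cd5l tg replicate 2 left out together, 1 lower without the low-count filter, and 0 to 1 higher and 0 to 9 lower with single libraries left out. Leaving out 5xFAD replicate 1 gave the 9. That fit, the fit without 5xFAD replicate 3 and the fit without the pair each hold 1 mouse in 5xFAD. The 5xFAD group is there assumed to vary like the Cd5l tg mice, so the counts and fold changes of these fits rest on that mouse. The median log2 fold change of the members was 0.010, 0.047 with limma-voom, and -0.013 to 0.054 with single libraries left out. Of 130 values of single members under the alternatives, 105 kept their sign and 25 did not. Bin1 and Picalm kept it throughout. With single libraries left out the values ran from -0.019 to 0.12 for Sorl1, -0.029 to 0.056 for Cd2ap, -0.029 to 0.062 for Abi3, -0.14 to 0.11 for Abca7, -1.45 to 0.52 for Clu, -0.30 to 0.031 for Ptk2b, -0.38 to 0.28 for Cass4 and -0.026 to 0.12 for Rin3. Abca7 was at 0.0067 with DESeq2 size factors, 0.0075 with upper-quartile factors, 0.0077 in the DESeq2 test, 0.11 with limma-voom and 0.020 with a filter of 5 CPM in 2 libraries. With the pair of libraries left out, Sorl1 was at -5.3e-05, Clu at 0.17, Cass4 at 0.40, Bmp6 at 0.26, Cyb561 at 0.35, Nwd1 at 0.38 and Fsd1l at 0.15. Other named genes that changed sign with a single library left out ran from -0.38 to 0.0092 for Gga2, -0.39 to 0.083 for Scarb1, -0.30 to 0.091 for Lrp1, -2.37 to 0.33 for Abca4, -1.64 to 0.55 for Bmp6, -1.50 to 0.60 for Cyb561, -1.52 to 0.63 for Nwd1, -1.55 to 0.56 for Fsd1l and -1.25 to 0.33 for Itgb8. The cause of these changes was not tested. With the replicate number as a block, edgeR called 0 genes and Cass4 stood at 0.0032. The deviations of same-numbered libraries from their group means correlated at 0.13 (replicate 1) and -0.24 (replicate 3) across genes. With 2 5xFAD libraries these deviations mirror each other. Both values thus rest on the difference between those 2 mice and cannot show whether a number marks a batch. The numbers were not taken as pairs because the labels give no batch. Of 104 list medians under the alternatives, here with Abi3 and Abca7 kept in their lists, 79 moved by less than the spread between mice. Among these 79 were the lipoprotein receptor medians, which ran from -0.35 to 0.25, so the count does not show that the medians were stable.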

Other observations

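Several paralogs of the 10 genes with few counts differed widely between libraries. Of 21 paralogs, abundant ones included, 9 were highest in Cd5l tg replicate 2 and 4 in 5xFAD replicate 3, libraries that were highest for 21.2% and 21.3% of all tested genes. Amph, a gene of synaptic vesicle endocytosis, stood at 0.452, 4.79 and 0.302 CPM in Cd5l tg, against 0.203 and 0.226 CPM in 5xFAD. Bcar1, the founding Cas family scaffold, stood at 4.52, 14.2 and 3.63 CPM in Cd5l tg, against 3.05 and 6.54 CPM in 5xFAD. Efs, another Cas family gene, stood at 2.65, 5.05 and 1.27 CPM in Cd5l tg, against 1.59 and 9.47 CPM in 5xFAD, and Snap91 at 1.58, 4.42 and 2.03 CPM, against 1.66 and 7.02 CPM. Sort1, which is abundant, was higher in each Cd5l tg library than in either 5xFAD library, at 334, 351 and 324 CPM in Cd5l tg and 307 and 308 CPM in 5xFAD, an order that 7.2% of all tested genes showed; its edgeR adjusted p was 0.999.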
